A study of Mus musculus with 10 samples.

Results

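The 10 genes described here are negative-feedback regulators and transcriptional targets of FGF-ERK signaling: the Sprouty genes *Spry1*, *Spry2* and *Spry4*, the Spred genes *Spred1* and *Spred2*, *Il17rd*, *Dusp6*, and the PEA3 transcription factor genes *Etv1*, *Etv4* and *Etv5*. They were chosen by name as pathway genes, with earlier results of these data known, and all 10 were found among the 23080 genes of the table. Their transcripts were measured by bulk RNA-seq of the mouse anterior fontanelle (AF), the wide membranous gap between the frontal and parietal bones, at E18.5 (embryonic day). Each sample mixes bone with soft suture tissue, and the dissection aimed to leave out brain and skin, whose markers are given with those of other tissues. Groups of 5 libraries each were compared, one labelled WT and one labelled as a neural crest KO of *Fgfr2* (*Wnt1-Cre; Fgfr2fl/fl*). *Wnt1-Cre* is active in the neural crest, so cells of other origin in the same tissue keep an intact receptor gene. The authors describe pairs of control and mutant littermates, but the labels do not say which libraries form a pair. The main test therefore used no pairing. The labels also do not give the alleles of the WT-labelled animals, and p-values measure the spread between these 10 libraries. The libraries are called WT1 to WT5 and KO1 to KO5 after the numbers in the labels.

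FGF ligands bind receptor tyrosine kinases such as FGFR2 and activate the RAS-RAF-MEK-ERK kinase cascade. Active ERK enters the nucleus and turns on a set of genes found downstream of FGF in most embryonic tissues, the synexpression group to which most of these genes belong. Several of the encoded proteins then dampen the pathway, at the receptor, at RAS and RAF, or at ERK itself, so their transcripts are widely used as a readout of pathway activity. In the skull vault, FGF signaling acts on the osteoprogenitors at the bone fronts.

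No difference between the KO-labelled and WT-labelled libraries was detected for any of the 10 genes. All 10 were expressed above edgeR's filter on low counts, 0 of 10 passed an adjusted p-value of 0.05 in edgeR's quasi-likelihood test, against 0.0184% of the 16267 genes tested, and 0 of 10 had an unadjusted p-value under 0.05, against 7.49%. Their adjusted p-values lay between 0.76 and 0.985. DESeq2 and limma voom also called 0 of 10, and called 98 and 3 of all 16267 genes. The groups overlapped for all 10 genes, while 1.49% of all genes tested had groups that did not overlap. Fitted changes went in both directions, with 6 genes fitted lower and 4 fitted higher in the KO-labelled libraries. The median log2 fold change was −0.028 for the 10 genes and 0.000743 for all genes tested, and the median size of the change regardless of sign was 0.083 and 0.091. Because the tissue was measured whole, fewer cells of a type and less RNA per cell cannot be told apart.

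**Figure D1:**
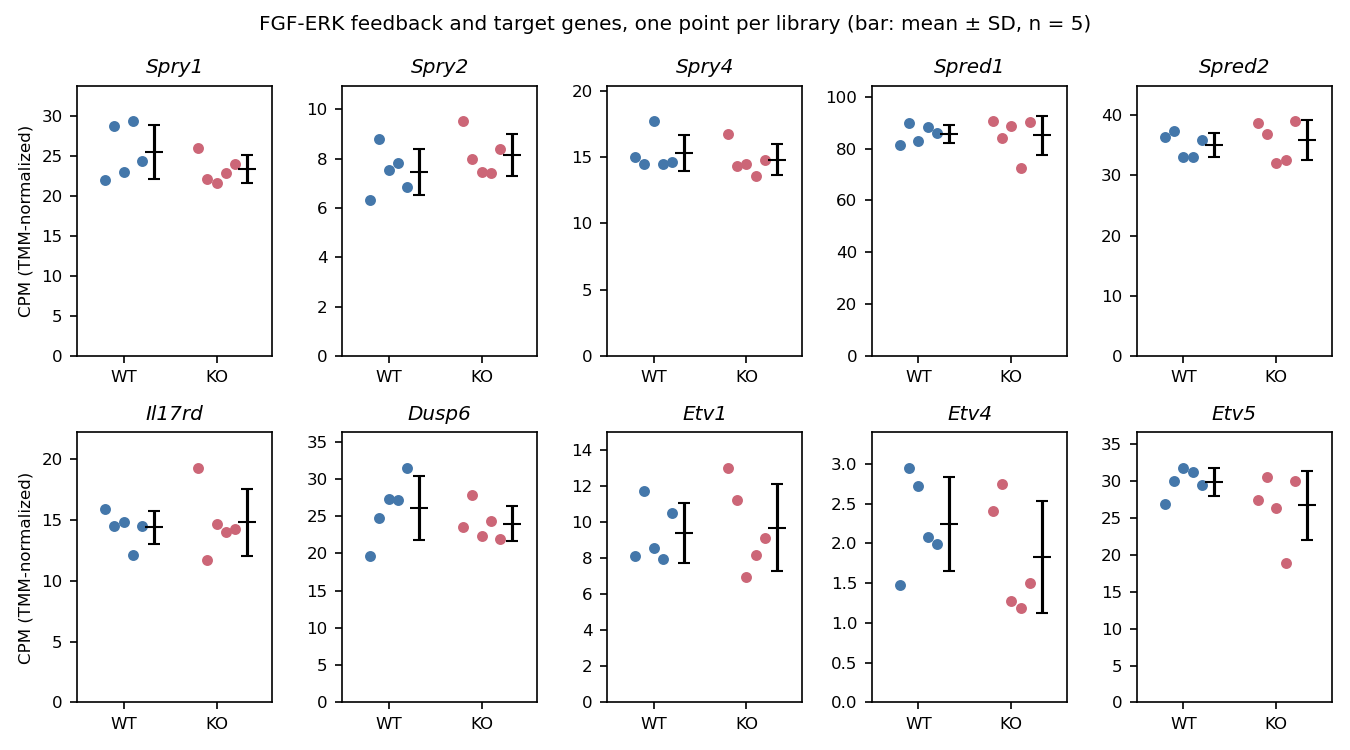
Level of each of the 10 genes in each library, in CPM on axes that start at 0. Points are libraries in the order 1 to 5 from left to right within the WT-labelled (blue) and KO-labelled (red) groups, bars are the mean ± SD (n = 5 each), and the groups overlap for all 10 genes.

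The library totals were between 21814198 and 28515434 counts for the WT-labelled libraries and between 20774667 and 25748619 for the KO-labelled libraries, of which ribosomal RNA genes took 18.7% to 33.6%. The counts of the targeted gene were higher in the libraries labelled as its KO. Levels are given in CPM, estimated counts scaled to the TMM-normalized library total. *Fgfr2* (GRCm38, chr7:130162451-133123350, minus strand) was at 200.2, 235, 176, 195 and 192 CPM in WT1 to WT5 and at 299, 273, 325, 338 and 357 CPM in KO1 to KO5. All 5 KO-labelled libraries were above all 5 WT-labelled libraries (log2 fold change 0.67, standard error 0.090, edgeR adjusted p = 0.0486; exact permutation test, two-sided, p = 0.00794, the lowest value possible with these group sizes). In 22 of 22 alternative analyses its log2 fold change stayed between 0.63 and 0.77, each with an unadjusted p-value under 0.05. The adjusted p-value was under 0.05 in 8 of them (lowest 4e-10, with DESeq2's Wald test) and over it in 14 (up to 1), among them those without any one of the libraries except WT2 and KO2. The gene count pools transcripts of recombined and intact alleles, and *Ctbp2* shares exon bases with *Fgfr2* on the same strand. The count alone thus does not show whether the receptor was lost, and it does not test the labels. Groups are therefore named by their labels, and directions are given by label.

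Levels can be compared between genes only per length. Per kilobase of annotated exon, *Spred1* was highest in the WT-labelled libraries, at 12.6 CPM per kb with a range of 12 to 13.2 that no other of the 10 genes reached. *Spry1*, *Dusp6*, *Spred2* and *Etv5* followed at 8.78, 8.32, 7.61 and 7.28 CPM per kb, and each overlapped with the next over the 5 libraries. *Spry2* (3.57) and *Spry4* (3.21) formed a lower pair whose ranges overlapped. *Il17rd* was at 1.31 CPM per kb, and *Etv4* (0.723) and *Etv1* (0.705) were lowest, with ranges that overlapped. Exons of all annotated transcripts were summed, to 13296 bases for *Etv1* and 10985 for *Il17rd*, which lowers both values if shorter transcripts are the ones used.

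The Sprouty proteins are membrane-associated inhibitors that block the path from receptor to RAS and RAF. *Spry1* (chr3:37639947-37644598, plus strand, with exon bases shared with the unclassified gene *Gm42922* on the opposite strand) was at 22.0, 28.8, 23.0, 29.4 and 24.4 CPM in WT1 to WT5 and at 26.1, 22.2, 21.6, 22.9 and 24.1 CPM in KO1 to KO5. WT2 and WT4 stood above every KO-labelled library, and 4 of the KO-labelled libraries lay within the WT-labelled range. The log2 fold change of *Spry1* was −0.13 (standard error 0.091, 95% interval −0.33 to 0.07; edgeR adjusted p = 0.778). *Spry2* (chr14:105891947-105896819, minus strand) was at 6.34, 8.78, 7.53, 7.81 and 6.85 CPM in the WT-labelled libraries and at 9.52, 7.99, 7.45, 7.41 and 8.39 CPM in the KO-labelled libraries. KO1 was the highest of all 10 libraries and WT1 the lowest, and the other libraries were interleaved. *Spry2* had a log2 fold change of 0.13 (standard error 0.11, 95% interval −0.11 to 0.37; edgeR adjusted p = 0.826).

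*Spry4* (chr18:38586247-38601415, minus strand) was at 15.0, 14.5, 17.7, 14.5 and 14.6 CPM in WT1 to WT5 and at 16.7, 14.3, 14.5, 13.6 and 14.8 CPM in KO1 to KO5. Libraries WT3 and KO1 stood above the others, which lay within a narrow band. Its log2 fold change was −0.047 (standard error 0.080, 95% interval −0.22 to 0.13; edgeR adjusted p = 0.927). It became 0.021 without WT3.

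The Spred proteins are relatives of the Sproutys that bring the RAS GTPase-activating protein neurofibromin to the membrane. *Spred1* (chr2:117121374-117182279, plus strand) was at 81.3, 89.8, 83, 88.2 and 86.2 CPM in WT1 to WT5 and at 90.6, 84.0, 88.8, 72.4 and 90.2 CPM in KO1 to KO5. KO4 was the lowest of the 10 libraries, while KO1 and KO5 were the highest. The log2 fold change of *Spred1* was −0.008 (standard error 0.065, 95% interval −0.15 to 0.13; edgeR adjusted p = 0.985), the smallest of the 10 genes, and 0.053 without KO4. *Spred2* (chr11:19924375-20024026, plus strand) was at 36.4, 37.4, 33, 33.1 and 35.8 CPM in WT1 to WT5 and at 38.7, 36.8, 32.1, 32.6 and 39.0 CPM in KO1 to KO5. Both ends of its range were KO-labelled libraries, with KO5 and KO1 highest and KO3 and KO4 lowest. *Spred2* had a log2 fold change of 0.028 (standard error 0.069, 95% interval −0.12 to 0.18; edgeR adjusted p = 0.953).

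*Il17rd* encodes Sef, a transmembrane protein that inhibits FGF signaling at the receptor and at ERK. The gene (chr14:27038941-27107286, plus strand) was at 15.9, 14.5, 14.8, 12.1 and 14.5 CPM in WT1 to WT5 and at 19.3, 11.7, 14.7, 14.0 and 14.3 CPM in KO1 to KO5. KO1 was the highest and KO2 the lowest of the 10 libraries, so the KO-labelled libraries enclosed the WT-labelled range. *Il17rd* had a log2 fold change of 0.041 (standard error 0.12, 95% interval −0.23 to 0.31; edgeR adjusted p = 0.96), and it was −0.064 without KO1.

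*Dusp6* encodes a cytoplasmic phosphatase that removes the activating phosphates from ERK. The gene (chr10:99263231-99267489, plus strand) was at 19.7, 24.7, 27.3, 27.1 and 31.5 CPM in WT1 to WT5 and at 23.6, 27.9, 22.3, 24.3 and 21.9 CPM in KO1 to KO5. The WT-labelled libraries held both the lowest and the highest value, and all 5 KO-labelled libraries lay between them. The log2 fold change of *Dusp6* was −0.12 (standard error 0.11, 95% interval −0.37 to 0.13; edgeR adjusted p = 0.845), which corresponds to a change of −7.91% with an interval from −22.3% to 9.19%. The log2 fold change was −0.20 without WT1 and −0.034 without WT5. The two-sided exact permutation test gave p = 0.413 for *Dusp6*.

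*Etv1*, *Etv4* and *Etv5* encode the PEA3 group of ETS transcription factors, which are induced by FGF and carry its signal to target genes. *Etv5* (chr16:22381309-22439719, minus strand) was at 26.9, 30.0, 31.8, 31.2 and 29.5 CPM in WT1 to WT5 and at 27.4, 30.6, 26.4, 18.9 and 30.0 CPM in KO1 to KO5. KO4 stood far below the other 9 libraries, which lay close together. *Etv5* had the lowest unadjusted p-value of the 10 genes (edgeR's quasi-likelihood test, p = 0.171; two-sided exact permutation test, p = 0.175), with an adjusted p of 0.76 in edgeR. Its log2 fold change was −0.16 (standard error 0.11, 95% interval −0.41 to 0.08), and −0.054 without KO4. *Etv1* (chr12:38779380-38870484, plus strand) was at 8.12, 11.7, 8.55, 7.97 and 10.5 CPM in WT1 to WT5 and at 13, 11.2, 6.93, 8.17 and 9.10 CPM in KO1 to KO5. KO1 and WT2 were the highest and KO3 the lowest library, and the log2 fold change was 0.045 (standard error 0.17, 95% interval −0.34 to 0.42; edgeR adjusted p = 0.97).

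*Etv4* (chr11:101769742-101785371, minus strand) was the least abundant of the 10 genes per library, with 28 to 86 counts. It was at 1.48, 2.95, 2.72, 2.08 and 1.99 CPM in WT1 to WT5 and at 2.41, 2.74, 1.28, 1.19 and 1.5 CPM in KO1 to KO5. KO3 and KO4 lay below every WT-labelled library, while KO1 and KO2 were among the higher libraries. The log2 fold change of *Etv4* was −0.30 (standard error 0.28; edgeR adjusted p = 0.844), the largest in size of the 10 genes and the least precise. Its 95% interval ran from −0.90 to 0.31, which spans changes from −46.6% to 24.1%. Without KO2 the log2 fold change was −0.49 and without WT2 it was −0.17. For the other 9 genes the interval stayed within 0.5 log2 units of 0 on both sides.

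**Figure D2:**
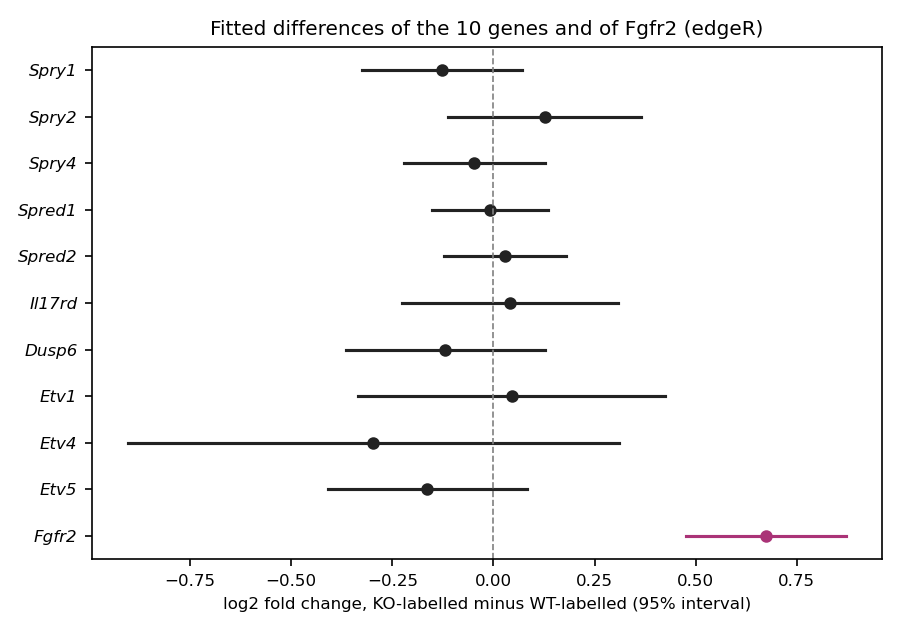
Fitted log2 fold change, KO-labelled minus WT-labelled, of the 10 genes (black) and of *Fgfr2* (purple) from edgeR, with lines for the 95% interval. The intervals of all 10 genes include 0, from the narrow one of *Spred1* to the wide one of *Etv4*, and the interval of *Fgfr2* (0.48 to 0.87) does not.

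The plot of fitted differences shows the precision behind these statements. The coefficient of variation between libraries of one group was 6.51% for *Spred1* and 32.5% for *Etv4*. Counting error alone gives 2.19% and 14.1% at their depth, so most of the spread of both genes was between libraries and not from sampling of reads.

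Promoters are shown for the genes that hold the ETS core word CGGAAG, the kind of sequence the PEA3 factors bind, in the RefSeq window from 250 bases before to 50 bases after the gene start as RefSeq places it (GRCm38.p6), which for *Spred1* and *Spred2* is not the GENCODE start given with their levels. Windows were found for 8 of the 10 genes, as 10 promoters, and CGGAAG was found on either strand in 3 of them, those of *Dusp6*, *Spred1* and *Spred2*, against 16.9% of all 32851 promoters. Capitals mark this word, written CTTCCG where it lies on the opposite strand, and in *Spred2* also the cyclic AMP response word TGACG, written CGTCA on the opposite strand. The windows are chr10:99262981-99263280, chr2:117120821-117121120 and chr11:19924192-19924491, all on the plus strand.
Dusp6: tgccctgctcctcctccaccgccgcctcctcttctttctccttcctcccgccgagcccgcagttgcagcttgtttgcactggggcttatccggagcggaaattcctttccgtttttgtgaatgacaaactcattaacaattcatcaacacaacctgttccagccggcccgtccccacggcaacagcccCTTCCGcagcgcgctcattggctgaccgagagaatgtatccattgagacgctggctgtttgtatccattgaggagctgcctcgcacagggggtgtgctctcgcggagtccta
Spred1: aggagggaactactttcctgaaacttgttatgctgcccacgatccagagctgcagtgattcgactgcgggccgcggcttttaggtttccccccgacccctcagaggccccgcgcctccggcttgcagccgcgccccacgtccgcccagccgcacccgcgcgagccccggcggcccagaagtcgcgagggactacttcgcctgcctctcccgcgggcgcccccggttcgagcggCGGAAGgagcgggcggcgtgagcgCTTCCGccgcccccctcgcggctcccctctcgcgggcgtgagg
Spred2: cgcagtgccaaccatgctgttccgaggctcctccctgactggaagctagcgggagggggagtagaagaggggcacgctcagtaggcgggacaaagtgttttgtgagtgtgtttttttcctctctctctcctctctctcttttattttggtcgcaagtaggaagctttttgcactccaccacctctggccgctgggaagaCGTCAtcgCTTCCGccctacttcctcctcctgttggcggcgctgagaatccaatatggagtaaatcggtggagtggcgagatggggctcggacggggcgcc

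*Dusp6* held 1 copy of the ETS word, *Spred1* held 2 and *Spred2* held 1. TGACG was present in 20.8% of all promoters and, of the promoters of the 10 genes, in that of *Spred2* alone. The AP-1 word TGANTCA, where N is any base, was in 7.81% of all promoters and in 0 of these 10. The 3 words do not overlap each other in these windows. A match describes the letters of the window and does not show a bound site.

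Other genes of the pathway were read from 5 lists of 66 tested genes, and 0 of 66 passed an adjusted p-value of 0.05 in edgeR (lowest adjusted p = 0.326). An unadjusted p-value under 0.05 was found for 5 genes, which is 7.58% of those tested and close to the 7.49% of all genes tested. The list of further feedback regulators and FGF modulators, such as *Spred3* and the *Flrt* genes, held 7 genes fitted higher and 4 fitted lower (median log2 fold change 0.069), with *Spry3* not tested. The kinases and adaptors of the ERK cascade were divided 11 and 11 (median −0.002), and other ETS factors and ERK-regulated repressors 7 higher and 4 lower (median 0.007).

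Among 13 tested immediate early and growth factor induced genes 10 were fitted lower and 3 higher (median log2 fold change −0.18), with *Fosl1* not tested. *Egr3*, a zinc finger transcription factor, was at 19.9, 22.0, 25.6, 24.4 and 22.3 CPM in WT1 to WT5 and at 16, 15.6, 21.1, 12.2 and 15.1 CPM in KO1 to KO5. Of the KO-labelled libraries, only KO3 reached the WT-labelled range. The log2 fold change of *Egr3* was −0.51 (standard error 0.13, edgeR p = 0.00156, adjusted p = 0.326; two-sided exact permutation p = 0.0159), and DESeq2's Wald test gave an adjusted p of 0.0361, the lowest over the 22 alternatives, which ran up to 1. *Fos*, a component of the AP-1 factor, was at 16.2, 13.5, 31.3, 20.8 and 12.9 CPM in WT1 to WT5 and at 13.5, 8.31, 14.3, 8.98 and 15.1 CPM in KO1 to KO5. WT1, WT3 and WT4 were above all KO-labelled libraries, and the others overlapped (log2 fold change −0.65, standard error 0.26, edgeR adjusted p = 0.634). *Phlda1*, a growth factor induced gene, had a mean of 20.7 ± 1.55 CPM in the WT-labelled and 18.6 ± 1.47 CPM in the KO-labelled libraries (SD, n = 5 each, log2 fold change −0.16, edgeR adjusted p = 0.659).

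Of 9 other MAP kinase phosphatases, 7 were fitted lower and 2 higher (median log2 fold change −0.17). *Dusp1*, a nuclear phosphatase of several MAP kinases that is itself an immediate early gene, had a mean of 16.8 ± 3 CPM in the WT-labelled and 13.9 ± 1.41 CPM in the KO-labelled libraries (SD, n = 5 each, log2 fold change −0.28, edgeR adjusted p = 0.653). With the osteoblast marker level as a covariate, the log2 fold changes of *Dusp1*, *Fos* and *Egr3* were 0.054, 0.16 and −0.26. The covariate itself differs with the label, since 12 of 12 osteoblast markers were fitted lower in the KO-labelled libraries. These values therefore do not separate marker level from label. Without WT3, and with no covariate, the log2 fold changes were −0.17 for *Dusp1* and −0.39 for *Fos*. *Rps6ka1*, which encodes the ERK-activated kinase RSK1, was at 17.1, 16.4, 16.2, 15.7 and 17.2 CPM in WT1 to WT5 and at 20.7, 18.4, 20.4, 17.6 and 19.3 CPM in KO1 to KO5. The groups did not overlap (log2 fold change 0.23, standard error 0.061, edgeR adjusted p = 0.412; two-sided exact permutation p = 0.00794).

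**Figure D3:**
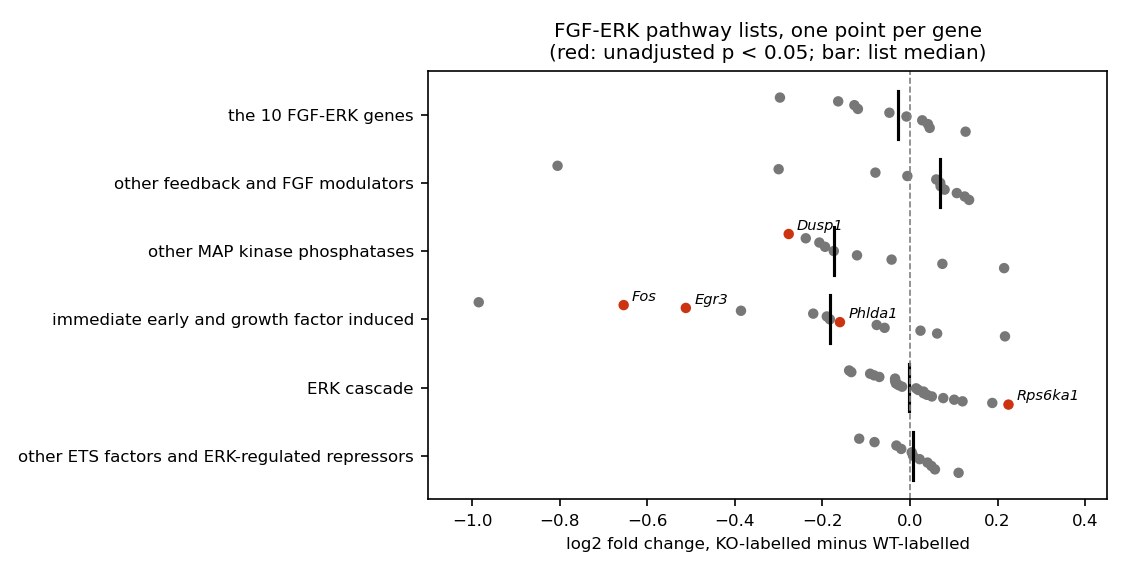
Log2 fold change, KO-labelled minus WT-labelled, of each gene of the 10 FGF-ERK genes and of 5 other pathway lists, with the list median as a black bar. Red points with names have an unadjusted p-value under 0.05 and none passes an adjusted p-value of 0.05 in edgeR, and the medians of the phosphatase (−0.17) and immediate early (−0.18) lists lie left of the others.

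Of the other FGF receptors, *Fgfr1* was at 326 ± 11.6 CPM in the WT-labelled and 326 ± 31.1 CPM in the KO-labelled libraries (SD, n = 5 each, log2 fold change 0.001). *Fgfr3* was at 62.2 ± 8.49 and 53.1 ± 1.76 CPM (SD, n = 5 each, log2 fold change −0.23, edgeR adjusted p = 0.624). Neither difference passed the threshold over all genes.

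Markers of the cell types of the tissue were read beside the 10 genes. Of 12 osteoblast markers, 12 were fitted lower in the KO-labelled libraries, with a median log2 fold change of −0.36, and 8 had an unadjusted p-value under 0.05 (7.49% of all genes) while 0 passed the adjusted threshold in edgeR. Of 4 markers of the tendon-like connective tissue of the fontanelle, 4 were fitted higher, with a median of 0.47, and 4 had an unadjusted p-value under 0.05 while 0 passed the adjusted threshold in edgeR. Markers of the ectocranial mesenchyme were fitted higher in 2 of 2 cases (median 0.27), and chondrocyte markers in 4 of 5 (median 0.19), with 1 of each list at an unadjusted p-value under 0.05 and 0 past the adjusted threshold in edgeR. Summed osteoblast markers were at 66224 to 77870 CPM in the WT-labelled and 54190 to 78560 CPM in the KO-labelled libraries, and tendon-like markers at 148 to 179 and 199 to 278 CPM. *Col1a1*, with means of 66246 and 64070 CPM, made most of the osteoblast sum, while *Ibsp*, a bone matrix protein gene, had means of 1704 and 1137 CPM. No marker of either list was at 0 in any library. With the osteoblast marker level as a covariate, 0 of the 10 genes and 0 of all 16267 genes tested passed the adjusted threshold. In that fit *Etv4* was at a log2 fold change of −0.86 (edgeR unadjusted p = 0.0824) and *Etv1* at −0.50 (edgeR unadjusted p = 0.0509). Because the osteoblast markers were fitted lower in the KO-labelled libraries, these values do not separate marker level from label. Across the 10 libraries, *Etv5* and the tendon-like markers had r = −0.67 (permutation p = 0.0112, adjusted p = 0.648 over 140 pairs of a gene and a marker list) and rho = −0.65 (permutation p = 0.0488, adjusted p = 0.696), with r = −0.71 without WT5 and KO4. *Etv5* and the ectocranial mesenchyme markers had r = −0.66 (permutation p = 0.0294, adjusted p = 0.648) and rho = −0.81 (permutation p = 0.00687, adjusted p = 0.481), with r = −0.81 without WT4 and KO1. Relative to the group means the r of this pair was −0.56 (exact permutation within groups, p = 0.0853, adjusted p = 0.702). *Il17rd* and the ectocranial markers had r = 0.67 (permutation p = 0.0324, adjusted p = 0.648) and rho = 0.42 (permutation p = 0.233, adjusted p = 0.788), and r = 0.16 without WT4 and KO1. On deviations from the group means, over all 10 libraries, r was 0.74 (exact permutation within groups, p = 0.00979, adjusted p = 0.457). *Dusp6* and the tendon-like markers had r = −0.62 (permutation p = 0.058, adjusted p = 0.663) and rho = −0.59 (permutation p = 0.081, adjusted p = 0.696), with r = −0.53 without WT5 and KO4. On deviations from the group means, r with the tendon-like markers was −0.67 for *Etv5* (exact permutation within groups, p = 0.0244, adjusted p = 0.62) and −0.81 for *Dusp6* (exact permutation within groups, p = 0.00681, adjusted p = 0.457). For the osteoblast markers the largest r in size was that of *Etv5*, at 0.46 (permutation p = 0.183), with rho = 0.42 (permutation p = 0.232) and r = 0.28 without WT4 and WT3. On deviations from the group means it was that of *Etv1*, at −0.71 (exact permutation within groups, p = 0.0325, adjusted p = 0.62).

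The 10 libraries also differed in how much of other tissues they held. Summed skeletal muscle markers (*Myh3*, *Myh8*, *Acta1*, *Ckm*, *Mylpf* and *Tnnt3*) were at 18.9, 713, 140.3, 67.9 and 18.3 CPM in WT1 to WT5 and at 708, 63.7, 17.4, 18.9 and 118 CPM in KO1 to KO5. Each group thus had one library rich in muscle transcripts, WT2 and KO1. Of these 6 markers, 5 were fitted lower and 1 higher, and none was at 0 in any library. Without WT2 and KO1, 0 of the 10 genes and 3 of all 16292 genes tested passed the adjusted threshold. Neuron and brain markers were highest in KO2, at 325 and 79.7 CPM, against 36.1 to 133 and 5.89 to 19.1 CPM in the other 9 libraries. Epidermis markers summed to 3.17 to 7 CPM.

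In some libraries most of the 10 genes stood on the same side of their group means. Relative to the mean of its own group, KO1 had 9 of the 10 genes above the mean and WT2 had 8, while KO4 had 1 and WT1 had 2. The share of all genes is not given beside these counts, so they are not shown to be particular to the 10 genes. KO4 was also the lowest library for the summed further feedback regulators (388 CPM) and the ERK cascade (954 CPM). KO2 or WT5 was lowest for the remaining pathway lists. In KO4 the ribosomal RNA share (18.7%) was the lowest and the TMM factor (1.13) the highest. *Spry1*, *Spry2*, *Etv1* and *Etv4* were all above their group means in both WT2 and KO1. *Dusp6* alone was below its group mean in both, at −0.063 and −0.018 log2 units from the group mean. Of the 4 libraries with the fewest muscle transcripts, WT1, KO4, WT5 and KO3, at 17.4 to 18.9 CPM, the other two had 5 (WT5) and 3 (KO3) of the 10 genes above the mean.

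**Figure D4:**
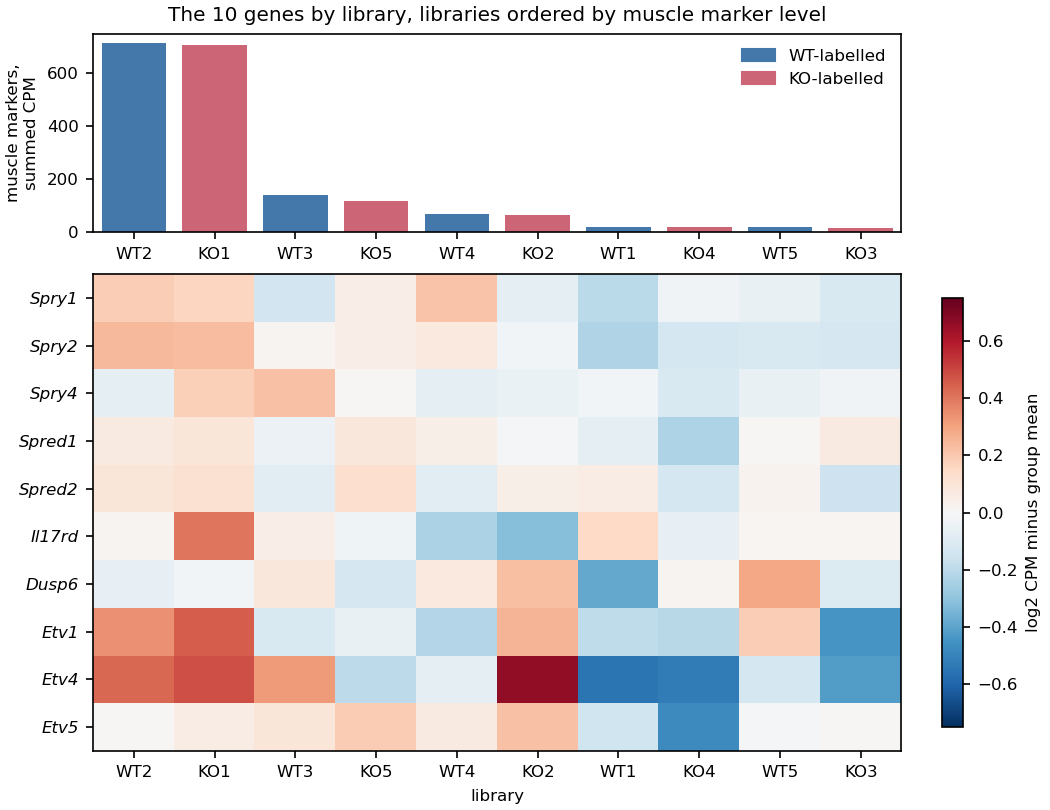
Upper panel, summed CPM of 6 skeletal muscle markers in each library, from the richest to the poorest and colored by label. Lower panel, log2 CPM of each of the 10 genes minus the mean of its own group on a color scale from blue (below) to red (above), in which the columns of WT2 and KO1 are mostly red and those of WT1 and KO4 mostly blue.

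*Spry2* followed the muscle markers most closely. Across the 10 libraries, its log2 CPM and the mean log2 CPM of the muscle markers had Pearson's r = 0.87 (permutation p = 0.001, adjusted p = 0.14 over the same 140 pairs) and Spearman's rho = 0.87 (permutation p = 0.00236, adjusted p = 0.33), and r was 0.70 without WT2 and KO1. On deviations from the group means, over all 10 libraries, r was 0.96 (exact permutation within groups, p = 0.000556, adjusted p = 0.0778). The relation of *Etv4* was weaker (r = 0.72, permutation p = 0.022, adjusted p = 0.648; rho = 0.72, permutation p = 0.0229, adjusted p = 0.696; r = 0.64 without WT2 and KO1). That of *Etv1* rested on those 2 libraries (r = 0.69, permutation p = 0.0286, adjusted p = 0.648; rho = 0.65, permutation p = 0.0492, adjusted p = 0.696; r = 0.24 without them). *Dusp6* showed r = 0.03 (permutation p = 0.932) and rho = 0.19 (permutation p = 0.611), and r = 0.22 without the same libraries. The r with the muscle markers was above 0 for 10 of 10 genes with a median of 0.54, but 0 of 140 pairs passed the adjusted threshold. The share of all genes with r above 0 is not given. An unadjusted p-value of r under 0.05 was found for 9 of 140 pairs, close to the share that this threshold passes by chance. They also included *Etv1* with Schwann cell markers (r = 0.68), *Spred2* with chondrocyte markers (r = 0.66) and *Dusp6* with osteoclast markers (r = 0.64). For these pairs the exact permutation within groups gave p = 0.0469, 0.0787 and 0.153, in that order. With the muscle marker level as a covariate, the log2 fold change of *Spry2* was 0.14 (edgeR adjusted p = 0.673, with a range over the 22 alternatives of 0.64 to 1).

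**Figure D5:**
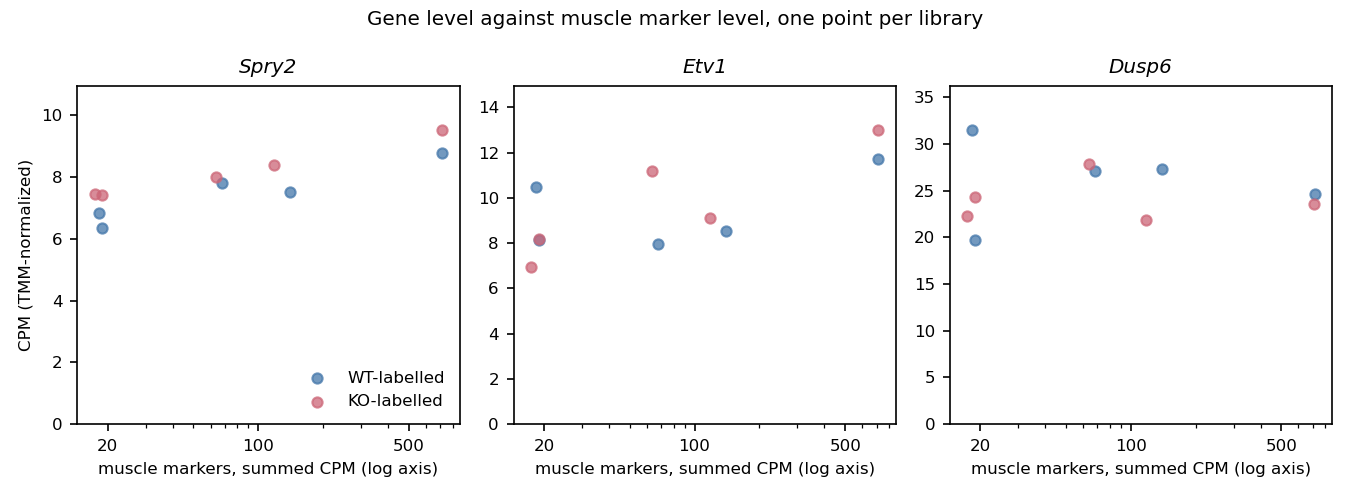
CPM of *Spry2*, *Etv1* and *Dusp6* (axes from 0) against the summed CPM of skeletal muscle markers on a log axis, one point per library, blue for WT-labelled and red for KO-labelled. *Spry2* increases from 6.34 CPM in WT1 to 9.52 CPM in KO1, the 2 right-hand points of *Etv1* (WT2 and KO1) carry its slope, and the highest and lowest points of *Dusp6* both lie at low muscle levels.

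Among the 45 pairs of the 10 genes, 39 had a positive r over the 10 libraries (median 0.33), and 0 passed the adjusted threshold (lowest adjusted permutation p = 0.309). The same count for pairs of other genes is not given. The r values of 0.69 or more were those of *Spred2* with *Etv1* (r = 0.75, permutation p = 0.0147, adjusted p = 0.332; rho = 0.73, permutation p = 0.0202, adjusted p = 0.308; r = 0.62 without KO3 and KO4), of *Etv1* with *Etv4* (r = 0.70, permutation p = 0.0297, adjusted p = 0.445; rho = 0.67, permutation p = 0.0397, adjusted p = 0.308; r = 0.60 without KO1 and WT2), of *Etv4* with *Etv5* (r = 0.69, permutation p = 0.00687, adjusted p = 0.309; rho = 0.71, permutation p = 0.0267, adjusted p = 0.308; r = 0.44 without KO4 and KO3) and of *Spred1* with *Etv5*. The last had r = 0.74 (permutation p = 0.0621, adjusted p = 0.551) but rho = 0.13 (permutation p = 0.734, adjusted p = 0.86), and r was −0.56 without KO4 and WT1, so that relation rested on these libraries. On deviations from the group means the median r of the 45 pairs was 0.35, and the highest was that of *Spry1* with *Spry2*, at 0.83 (exact permutation within groups, p = 0.00833, adjusted p = 0.375). By rho, the highest pair was *Spry2* with *Spred1* (rho = 0.77, permutation p = 0.0125, adjusted p = 0.308), for which r was 0.52 (permutation p = 0.128, adjusted p = 0.551) and 0.41 without KO1 and WT1.

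Genes with a pattern like that of the 10 genes were sought among 11006 other genes with a mean of at least 5 CPM, by Pearson's r of the deviations from the group means over the 10 libraries, as a description. The 5 closest to the mean of the 10 genes were *Pde4dip* (r = 0.982), *Ubald1* (0.941), *Ubl3* (0.92), *Sipa1l3* (0.917) and *Wbp2* (0.914). These 5 genes had r values of 0.683 to 0.933 with the muscle markers. Their choice by likeness to the 10 genes (median r = 0.54 with these markers) makes high values likely. The 5 closest to *Dusp6* alone, among 11014 genes, were *Ptk2b* (r = 0.961), *Sh3bp2* (0.924), *Kidins220* (0.918), *Chaf1b* (0.905) and *Fbxo31* (0.897). Their r values with the muscle markers lay between −0.115 and 0.215, as their choice by likeness to *Dusp6* (r = 0.03 with these markers) makes likely.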

How the data were processed

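RNA was isolated from E18.5 AF tissue, and stranded libraries were sequenced as single reads of 50 bases. The authors deposited estimated counts for each gene, unscaled between libraries, of which 66.4% are exactly whole numbers. No gene has a sum under 10 over the 10 libraries. The submitters' processing notes name Partek and mm10. Aligner, counter, strand setting and test are not given in the sources used here. Start and end of 22296 of 22533 symbols match GENCODE M21 (GRCm38), counting the table's end as 1 base past the last base. Position and exon length came from that annotation and promoters from RefSeq.

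Estimated counts were rounded. In R 4.3.3, edgeR 4.0.16 (filterByExpr, TMM factors 0.90 to 1.13) tested 16267 genes, with 6813 left out, by the quasi-likelihood test without covariates, and p-values were adjusted by Benjamini-Hochberg over all genes tested (threshold 0.05). Log2 CPM used a prior count of 0.5. The biological coefficient of variation was 18.9%. Single genes were also compared by two-sided exact permutation over 252 groupings. Correlations used 100000 permutations, or 14400 exact ones within groups, with Python 3.11.15 and scipy 1.17.1. The test was checked on simulated data. The 20 pairs of libraries within groups differed by at least 8.14 times the sampling noise (chi-square per degree of freedom). The labels' replicate numbers were not used to pair libraries.

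Genes named are the 10 genes, *Fgfr2*, in each pathway list up to 3 genes per direction with the largest fold change at an unadjusted p-value under 0.05, and the 5 genes most like the 10 genes or *Dusp6* among those with at least 5 CPM. Other genes named (other FGF receptors, cell type markers, genes that share exon bases, examples or untested genes of a list) fall outside this rule. The genes and lists were chosen with earlier results of these data known. Alternatives were other normalizations (DESeq2 size factors, library size, no ribosomal RNA genes and *Lars2*), DESeq2 1.42.0, limma 3.58.1 voom, other filters and thresholds, a replicate block, covariates (sex, osteoblast or muscle markers), and leaving out libraries. The muscle covariate, leaving out the 2 muscle-rich libraries together and the unadjusted threshold for all genes were chosen after seeing the data.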

Additional observations from a re-analysis of the deposited data

Results flagged for a closer look

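In 2 of 34 groups of 5 libraries tested, one library lay far from the others, where chance alone marks about 1 group in 20. *Spry4* was at 17.7 CPM in WT3, the highest of the WT-labelled libraries, and the next highest was at 15.0 CPM. The gap was 0.835 of the group's range, above the critical value of 0.71. *Fgfr3* was at 50.1 CPM in KO4, the lowest of the KO-labelled libraries, with the next lowest at 53.3 CPM and a gap of 0.738 of the range.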

How the results depend on the processing

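Under all 24 alternatives run, 0 of the 10 genes were called (lowest adjusted p = 0.64, lowest unadjusted p = 0.0509), and the median log2 fold change stayed between −0.082 and 0.021 in the 22 that refit it. Most alternatives also called few of all genes tested (3 in the main fit, 98 with DESeq2's Wald test). A count of 0 of 10 by itself therefore says little about these genes. Of 220 log2 fold changes of single genes, 21 changed sign and none passed an unadjusted p-value of 0.05, and the cause was not tested. *Spry1*, *Spry2*, *Dusp6*, *Etv4* and *Etv5* never changed sign. With library size only, *Spred2* was at −0.016 and *Il17rd* at −0.0065. *Spred1* was at 0.015 with voom and at 0.00027 with at least 10 counts in every library. With the osteoblast covariate, *Spred1* was at 0.038, *Spred2* at −0.085, *Il17rd* at −0.078, *Etv1* at −0.50, *Etv4* at −0.86, *Egr3* at −0.26, *Dusp1* at 0.054 and *Fos* at 0.16. That covariate differs with the label, so these values do not separate marker level from label. Without the 2 muscle-rich libraries *Il17rd* was at −0.06. Leaving out each library in turn gave −0.085 to 0.021 for *Spry4*, −0.029 to 0.053 for *Spred1*, −0.0041 to 0.074 for *Spred2*, −0.064 to 0.12 for *Il17rd* and −0.071 to 0.15 for *Etv1*. For the genes that kept their sign it gave −0.17 (without WT1) to −0.071 (without WT4) for *Spry1*, 0.075 (without KO1) to 0.20 (without WT2) for *Spry2*, −0.20 (without WT1) to −0.034 (without WT5) for *Dusp6*, −0.49 (without KO2) to −0.17 (without WT2) for *Etv4* and −0.21 (without KO2) to −0.054 (without KO4) for *Etv5*.

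Of all genes tested, 3 were called. The count was 1 with library size only, 98 with DESeq2's Wald test, 0 with the osteoblast covariate (edgeR), 1 with sex and 1 with muscle markers as a covariate, and 1219 at an unadjusted p-value under 0.05. Leaving out each library in turn gave 1 to 6. It was 1 without WT3, WT4, WT5, KO1, KO3, KO4 or KO5, and 6 without KO2. With the replicate number as a block, 1 gene and 0 of the 10 genes were called, with a median log2 fold change of −0.029. Libraries of the same number did not deviate together (correlations −0.20, 0.14, −0.21, 0.027 and −0.14), and 0 of 10 libraries correlated best with its own number, so the numbers were not taken as pairs. The depth limits *Etv4* most, at 28 to 86 counts per library.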
